A study of Mus musculus with 2 samples.

Results

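Vmn1r206, Vmn1r208 and Vmn1r209 are 3 genes of the V1R family of vomeronasal receptors, and they were examined here in nuclei of olfactory bulb projection neurons. They were chosen from the measured values of these libraries, because UMIs (unique molecular identifiers, each standing for 1 captured RNA molecule) of all 3 had been seen in projection neurons, so the contrast of projection neurons with other nuclei is given as a description. The 3 genes are 3 of the 31055 rows of each count table. Projection neurons were nuclei with 1000 or more detected genes in which the summed UMIs of Slc17a7, Slc17a6, Tbx21 and Cdhr1 exceeded those of Gad1, Gad2 and Slc32a1. This rule gave 25 of 102 kept nuclei in the AON library and 59 of 63 in the pPCx library.

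The study addressed whether mitral and tufted cells that send axons to anterior and posterior olfactory targets differ in their transcriptomes. Both libraries came from olfactory bulbs of adult mice labelled WT, after stereotaxic injection of retroAAV-CAG-H2B-GFP, a virus taken up by axon endings that puts green fluorescent protein into the nucleus under a general promoter. The injection site was the anterior olfactory nucleus (AON) for one library and the posterior piriform cortex (pPCx) for the other, and fluorescent nuclei were sorted before 10x 3′ single-nucleus sequencing. Each condition was 1 library, so no test between injection sites or between nuclei was possible, and the 95% intervals below cover counting error only. The pPCx library came from 1 mouse per the study's methods, and the number of mice behind the AON library is not given in the sources used here.

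V1R receptors are G protein-coupled receptors known from apical sensory neurons of the vomeronasal organ, where they detect pheromones and related cues and signal through the G protein Gnai2 and the channel Trpc2. A vomeronasal sensory neuron usually expresses 1 receptor gene of the family. Mitral and tufted cells are glutamatergic neurons that carry odour information from the olfactory bulb to the cortex, and they are not themselves sensory neurons.

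The 3 genes lie on the minus strand of mouse chromosome 13 (GRCm38, GENCODE M21) within 192 kb of each other. Vmn1r206 (ENSMUSG00000101578) spans 22617456 to 22624251, Vmn1r208 (ENSMUSG00000071493) spans 22771474 to 22777400, and Vmn1r209 (ENSMUSG00000071491) spans 22800629 to 22809682. Each has its whole coding sequence in 1 exon, of 936, 924 and 936 bases. Coding sequences of Vmn1r206 and Vmn1r209 were 95.9% identical, and Vmn1r208 was 83.4% identical to Vmn1r206 and 83.8% identical to Vmn1r209. A stretch of 90 coding bases without alignment gaps is printed to show how closely the 3 genes resemble each other, since this bears on whether their reads can be told apart. It covers coding bases 34 to 123 of Vmn1r206 and Vmn1r209 and bases 40 to 129 of Vmn1r208 (chr13:22620913-22621002, chr13:22773197-22773286 and chr13:22806396-22806485, minus strand, 5′ to 3′). Capitals mark the 19 positions at which the 3 genes do not all share the base.
Vmn1r206: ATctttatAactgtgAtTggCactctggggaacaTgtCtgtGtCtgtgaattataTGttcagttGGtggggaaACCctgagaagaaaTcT
Vmn1r208: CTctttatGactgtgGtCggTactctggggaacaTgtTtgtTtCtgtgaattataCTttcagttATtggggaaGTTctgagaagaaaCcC
Vmn1r209: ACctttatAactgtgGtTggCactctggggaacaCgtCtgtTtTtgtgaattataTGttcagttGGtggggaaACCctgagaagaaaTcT
In this stretch Vmn1r206 and Vmn1r209 differed at 5 positions, whereas Vmn1r208 differed from them at 16 and 17. Over all annotated transcripts, 14.6% of the 31-base stretches of Vmn1r206, 1.92% of those of Vmn1r208 and 8.48% of those of Vmn1r209 occurred in another of the 3 genes. In the last 500 bases of the longest transcript, where a 3′ assay places many of its reads, none of the 470 stretches of each gene occurred in another V1R gene. Vmn1r207-ps lies between the first 2 genes, holds 31.2% of the stretches of Vmn1r209 and is 95.4% identical to it in the coding part. Vmn1r207-ps was not found among the genes of the count table within 500 kb of the 3 genes, so it has no counts here. Reads shared by near-identical copies may be assigned uncertainly.

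UMIs of the receptor genes were found in projection neurons of both libraries and in none of the other kept nuclei. In the AON library, 17 of 25 projection neurons held a UMI of at least 1 of the 3 genes (68%, exact 95% interval 46.5 to 85.1%). The pPCx number was 31 of 59 (52.5%, 39.1 to 65.7%). Among the other kept nuclei, 0 of 77 held such a UMI in the AON library and 0 of 4 in the pPCx library. The AON count allows a share of nuclei with a UMI of up to 3.9% by the floor of 3 counts, or 4.68% by the exact 95% interval, and the pPCx count one of up to 60.2% by the exact interval. The other AON nuclei had a median of 21031 UMIs against 38129 in the projection neurons, and 60 of the 77 had more Gad1, Gad2 and Slc32a1 UMIs than excitatory ones.

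**Figure D1:**
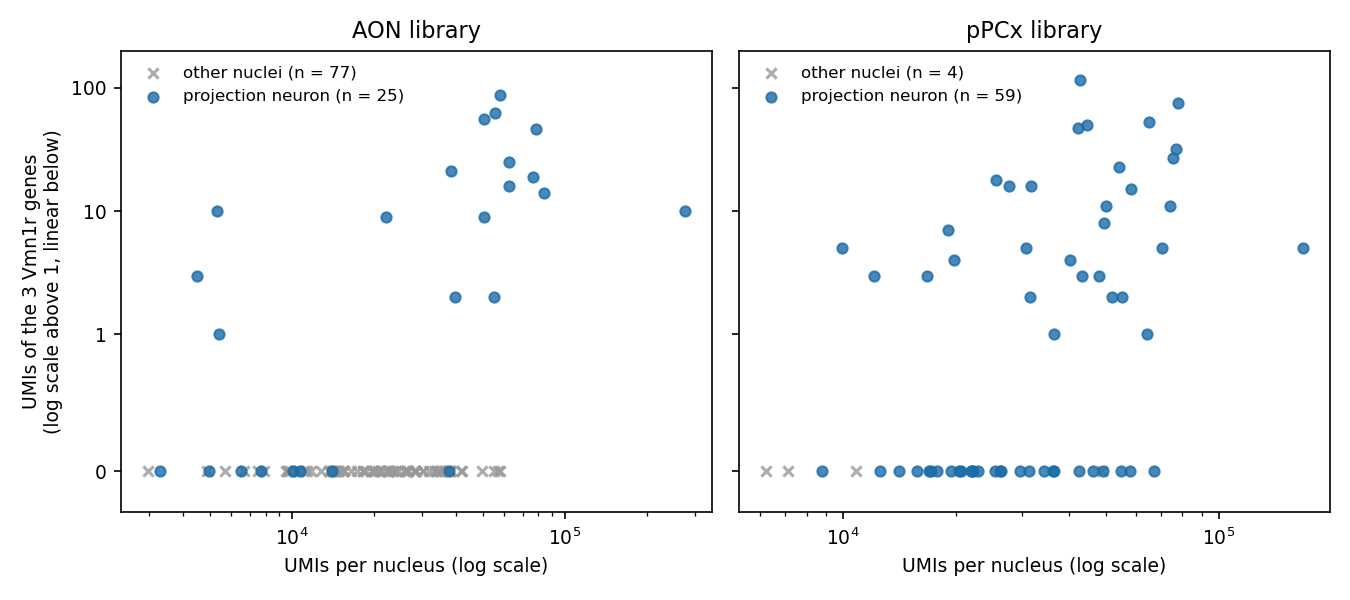
Summed UMIs of Vmn1r206, Vmn1r208 and Vmn1r209 in each kept nucleus (y, log scale above 1) against its total UMIs (x, log scale) in the AON and pPCx libraries, with projection neurons as circles and other nuclei as crosses. All 77 AON and 4 pPCx other nuclei lie at 0 over the depths that they cover, while projection neurons reach 88 UMIs in the AON and 115 in the pPCx library.

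Positive projection neurons were deeper than negative ones, with medians of 54982 against 8868 UMIs in the AON and 44499 against 24089 UMIs in the pPCx library. When each nucleus was thinned at random to 8000 UMIs and shallower nuclei were left out, 12 of 18 AON projection neurons (66.7%, 41.0 to 86.7%) and 23 of 59 pPCx projection neurons (39.0%, 26.5 to 52.6%) still held a UMI of the 3 genes. None of the 71 other AON nuclei that reached 8000 UMIs did. The AON share also depended on the rule for a projection neuron. Of the 25 AON projection neurons, 7 passed it by 1 UMI and none of these 7 held a receptor UMI, while 27 other AON nuclei lay at equality or 1 UMI below and held none either. No pPCx projection neuron passed by 1 UMI. With at least 3 excitatory marker UMIs, more than 2 times the inhibitory ones, 16 of 17 AON nuclei held a UMI (94.1%). Under that rule 1 of 85 other AON nuclei also held receptor UMIs (1.18%). It was a nucleus of 5318 UMIs with 2 excitatory marker UMIs and 10 receptor UMIs, the highest receptor level per UMI among the AON projection neurons. The 8 AON projection neurons without a UMI had a median of 1 excitatory marker UMI against 25 in the 17 with a UMI, and their summed astrocyte and oligodendrocyte markers reached 6064 CPM against at most 737 CPM; the part of either in the AON share was not tested.

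Vmn1r209 was the most abundant of the 3 genes in both libraries. It had 245 UMIs in 15 AON projection neurons, 219 CPM (counts per 1000000 UMIs of the class; exact Poisson interval 193 to 248), and 438 UMIs in 28 pPCx projection neurons, 188 CPM. Per nucleus its UMIs ran from 0 through a median of 3 to 57 in the AON library, and from 0 through a median of 0 to 98 in the pPCx library. Levels thus ranged widely between nuclei, and the 3 nuclei with the most UMIs of the gene held 56.7% of them in the AON and 45.9% in the pPCx library.

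Vmn1r206 had 111 UMIs in 16 AON projection neurons (99.3 CPM, 81.7 to 120) and 85 UMIs in 25 pPCx projection neurons (36.5 CPM). Its per-nucleus UMIs ran from 0 through a median of 2 to 18 in the AON library and from 0 through 0 to 10 in the pPCx library. Vmn1r208, the least abundant, had 37 UMIs in 9 AON projection neurons (33.1 CPM, 23.3 to 45.6) and 50 UMIs in 16 pPCx projection neurons (21.5 CPM). A single nucleus held 17 of the 37 AON UMIs of Vmn1r208. These levels are UMIs of a 3′ assay, which are not scaled by transcript length.

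Against the floor of 3 UMIs over the other AON nuclei, Vmn1r209 was 128-fold higher in AON projection neurons, Vmn1r206 58.0-fold and Vmn1r208 19.3-fold. Counting error of the projection neuron UMIs is not part of these values. As background, 4.75% of the 13302 AON genes with at least 10 UMIs were 4-fold or more higher in projection neurons than in other nuclei, and 5.46% of 12503 genes in the pPCx library. Against the same floor over the 4 other pPCx nuclei, Vmn1r209 alone was higher, at 4.58-fold. Of the 4355 genes with 37 or more UMIs in AON projection neurons, 14 had none in the other AON nuclei. The cut of 37 is the count of Vmn1r208, so the 3 receptor genes pass it by construction. Having no UMI in the other nuclei, they are among the 14, and their place there is not a separate result. The remaining 11 included the odorant receptor genes Olfr115, Olfr111 and Olfr114, the growth factor gene Igf1, and Slc17a6, which the rule itself used. In the pPCx library, 770 of the 6052 genes with 50 or more UMIs in projection neurons had none in the 4 other nuclei. The cut of 50 is again the count of Vmn1r208, and absence from those 4 nuclei is thus common among genes.

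Between the injection sites, the summed level of the 3 genes in projection neurons was higher after AON injection, at 352 CPM (318 to 388), than after pPCx injection, at 246 CPM (226 to 267). The ratio of AON over pPCx was 2.72 for Vmn1r206 (2.03 to 3.65), 1.54 for Vmn1r208 (0.98 to 2.41) and 1.17 for Vmn1r209 (0.993 to 1.37). Hence Vmn1r206 made up 28.2% of the UMIs of the 3 genes in the AON and 14.8% in the pPCx library, and Vmn1r209 made up 62.3% and 76.4%. Without the 1 nucleus holding the most, the summed levels were 288 and 200.4 CPM. Injection site, animal and library cannot be told apart here.

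UMIs of the 3 genes occurred together in the same nuclei. Of the 17 positive AON projection neurons, 14 held UMIs of at least 2 of the genes and 9 held all 3, and the numbers in the pPCx library were 27 and 11 of 31. In the AON library, each of the 9 nuclei with Vmn1r208 also held Vmn1r206 and Vmn1r209. Likewise, 23 of the 25 pPCx nuclei with Vmn1r206 and 14 of the 16 with Vmn1r208 also held Vmn1r209. At 8000 UMIs per nucleus, 6 of 12 positive AON nuclei and 11 of 23 positive pPCx nuclei still held at least 2 of the genes, and 3 in each library held all 3. Independent detection at the same shares would give all 3 genes in 3.46 AON and 3.22 pPCx nuclei at full depth. At 8000 UMIs it would give 0.864 and 0.362 nuclei. As a description over nuclei of 1 library, which share depth, Spearman's rho between pairs of the genes (UMIs per 10000) ran from 0.74 to 0.82 over 25 AON and from 0.48 to 0.80 over 59 pPCx projection neurons. Vmn1r209 gave the most UMIs of the 3 genes in 9 of 11 AON and 13 of 14 pPCx nuclei with 10 or more UMIs of them.

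**Figure D2:**
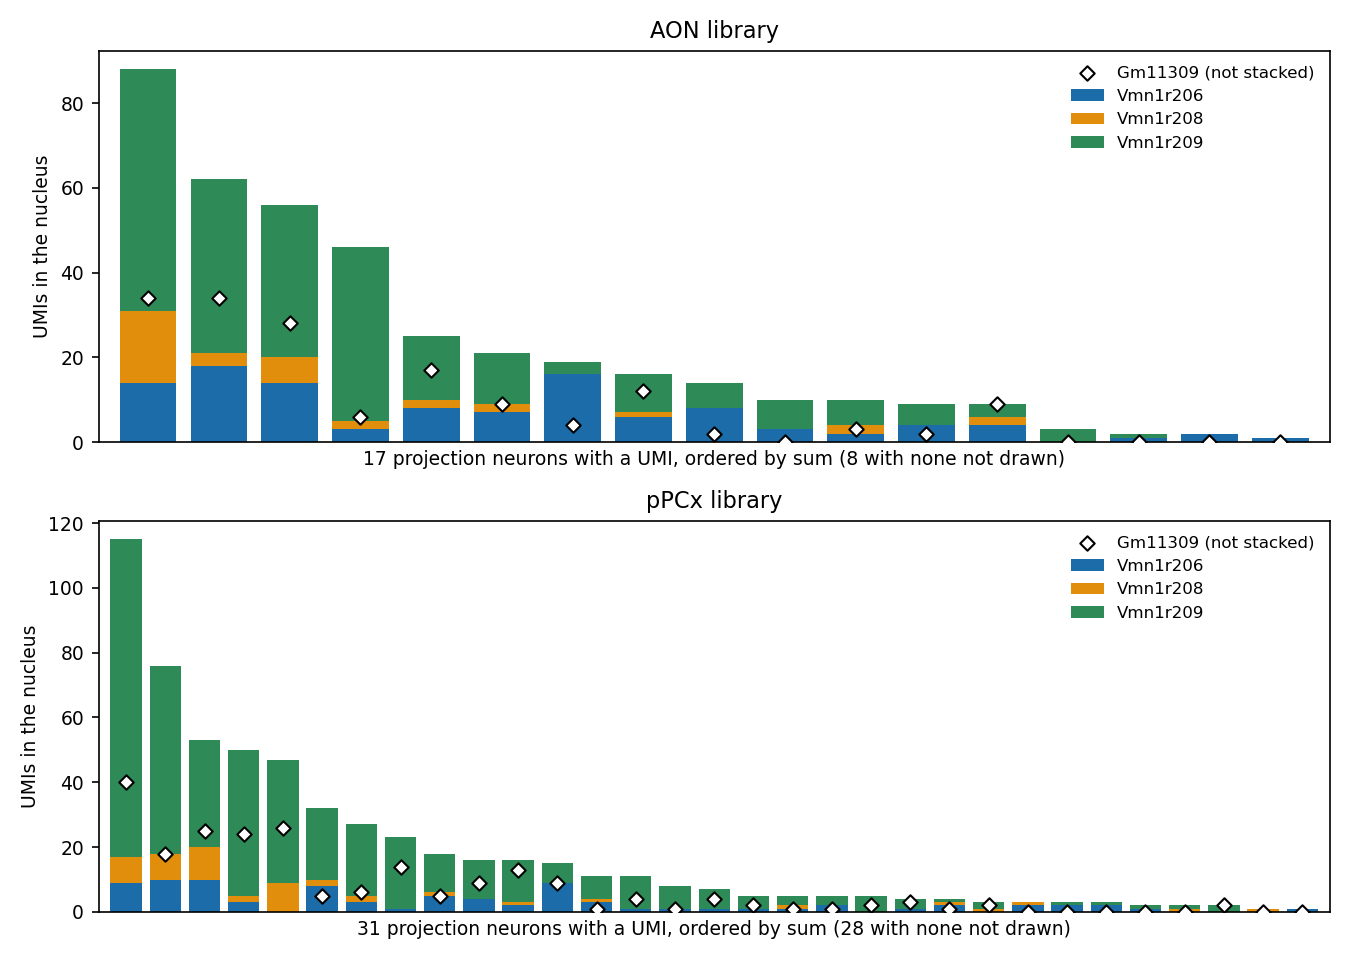
UMIs of Vmn1r206, Vmn1r208 and Vmn1r209 (stacked bars) and of the neighbouring RNA gene Gm11309 (diamonds, not stacked) in each projection neuron with a UMI of the 3 genes, ordered by their sum. Nuclei with high sums hold several of the genes at once, and Vmn1r209 forms the largest part in 9 of 11 AON and 13 of 14 pPCx nuclei with 10 or more UMIs.

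Gm11309, an antisense RNA gene without known function, was the one neighbour of the 3 genes with comparable levels. It lies between Vmn1r206 and Vmn1r208 on the plus strand (ENSMUSG00000085221, chromosome 13, 22691299 to 22714987). It had 160 UMIs in 12 AON projection neurons and 223 UMIs in 25 pPCx projection neurons, and it had 1 UMI in the 77 other AON nuclei and none in the 4 other pPCx nuclei. All 12 AON nuclei and 24 of the 25 pPCx nuclei with Gm11309 also held a UMI of the receptor genes. By Spearman's rho with the summed level of the 3 receptor genes it ranked first, the members left out, among 10596 genes in the AON library (0.84, 25 nuclei) and among 10604 genes in the pPCx library (0.85, 59 nuclei), against medians of 0.12 and 0.02 over all genes ranked. After it, Abl2 (0.76), Ppp1r12b (0.75), Bbs5 (0.73) and Mark1 (0.72) ranked highest in the AON library, and Csmd1, Gm15398, Kcnma1 and Lrtm1 (all 0.71) in the pPCx library. Apart from Gm11309 the 2 libraries shared none of these ranked genes. In the pPCx library the rho was 0.13 for Abl2, 0.03 for Ppp1r12b, 0.24 for Bbs5 and -0.40 for Mark1. In the AON library it was -0.05 for Csmd1, 0.35 for Gm15398, 0.35 for Kcnma1 and 0.19 for Lrtm1.

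The sequence of Gm11309 limits how its counts can be read. Of its 583 stretches of 31 bases, 451 are the reverse complement of the transcripts of Vmn1r208, and 476 also occur in Gm11314, an antisense RNA gene that overlaps Vmn1r208 and had no UMI. Whether the counting used strand is not given in the sources used here, so reads of Gm11309 and of V1R genes that match it on the other strand may not have been told apart.

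The rest of the gene cluster had few UMIs. Of 34 other genes of the table within 500 kb of the 3 genes, 29 of them V1R genes, Gm11309 alone reached 10 UMIs over the projection neurons of both libraries. The others had at most 9 UMIs and 19 had none. Vmn1r218 had 6 AON and 3 pPCx UMIs in projection neurons, and 4 and 1 in the other nuclei.

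**Figure D3:**
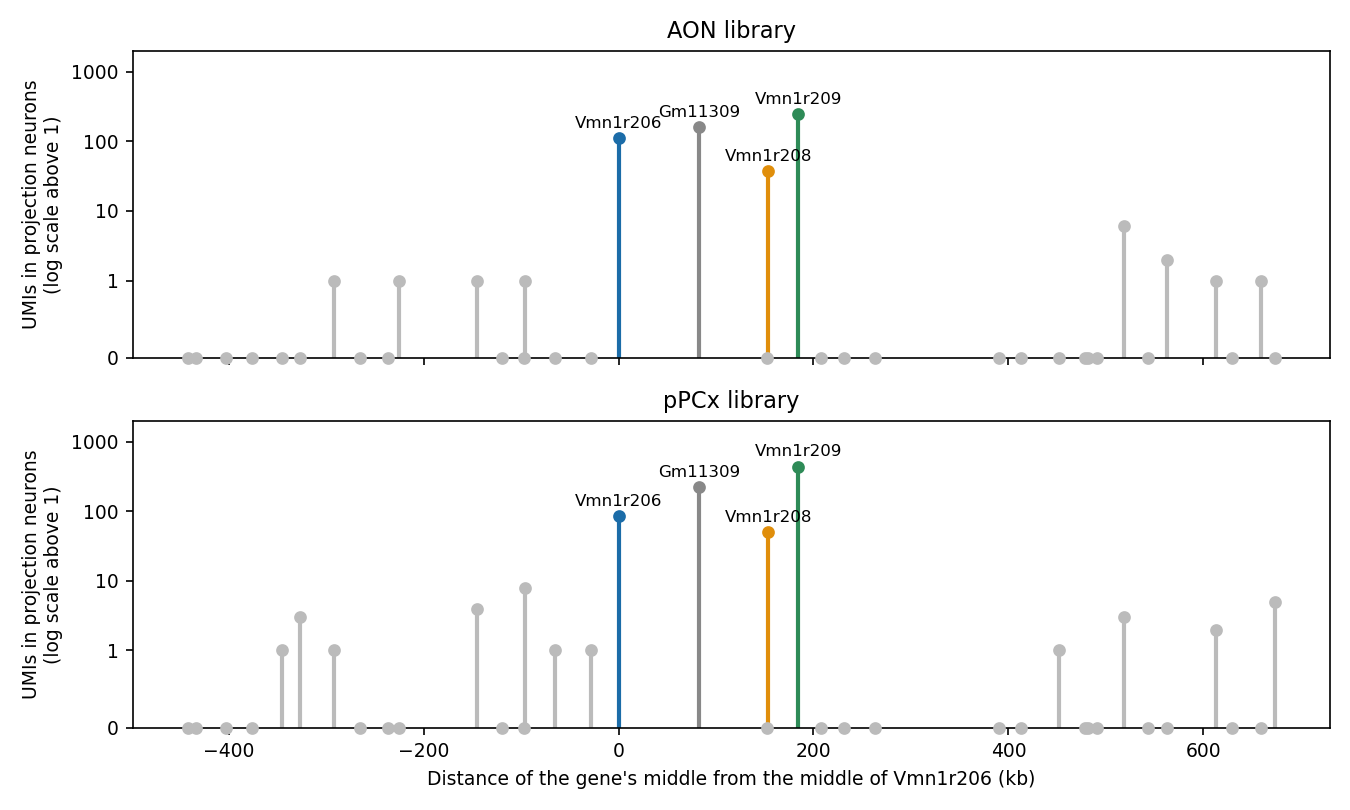
UMIs in projection neurons (y, log scale above 1) of each gene within 500 kb of the 3 receptor genes, by its distance from the middle of Vmn1r206 in kb (x), in the AON (top) and pPCx (bottom) library. Vmn1r206, Vmn1r208, Vmn1r209 and Gm11309 stand above 30 UMIs in both libraries, and every other gene is at 9 or fewer.

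Most other vomeronasal receptor genes had no UMI or few, and most of those with 5 or more UMIs were found in other nuclei as well. Of 203 other V1R genes in the table, 29 had a UMI in the AON and 33 in the pPCx library, and none exceeded 13 UMIs over the projection neurons of both. Their summed level was 39.4 CPM in projection neurons and 22.3 CPM in other nuclei of the AON library, and 47.2 CPM (110 UMIs) and 27.4 CPM (2 UMIs) in the pPCx library. The 123 genes of the V2R family, receptors of the basal vomeronasal neurons, summed to 103 CPM in both classes of AON nuclei, and to 168 CPM (392 UMIs) in projection neurons and 95.8 CPM (7 UMIs) in the 4 other nuclei of the pPCx library. Among them Vmn2r87 had 11 UMIs in AON projection neurons, 19 in other AON nuclei and 78 in 37 pPCx projection neurons (33.5 CPM). Vmn2r59 had 16, 3 and 39 (in 28 pPCx nuclei), and Vmn2r30 had 6, 8 and 41 (in 31). In pPCx projection neurons Vmn2r87 was thus above Vmn1r208 (21.5 CPM). It was also found in more nuclei than Vmn1r206 (25), Vmn1r208 (16) or Vmn1r209 (28). Of 48 V1R and V2R genes with 5 or more UMIs, 5 had none in the other nuclei of either library, and the most abundant of those 5 had 7 UMIs.

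Sensory neuron markers were examined in the same nuclei. Omp, the olfactory marker protein gene of mature sensory neurons, and Trpc2, the transduction channel of vomeronasal neurons, had no UMI in any kept nucleus of either library. Gnai2 was found at full depth in 7 of 17 positive and 1 of 8 negative AON projection neurons, and in 17 of 77 other AON nuclei. In the pPCx library it was found in 13 of 31 positive and 14 of 28 negative projection neurons, and in 1 of 4 other nuclei. The 6 vomeronasal sensory neuron markers summed to a median of 90.9 CPM (0 to 378) in positive AON projection neurons, 342 CPM (0 to 994) in negative ones and 339 CPM (0 to 2342) in other nuclei. The pPCx values were 173 CPM (35.9 to 580) in positive and 164 CPM (0 to 468) in negative projection neurons, and nearly all of it came from Gnao1, a G protein subunit gene that many neurons express. The 7 olfactory sensory neuron markers summed to medians of 59.6 CPM (0 to 922) in positive and 0 CPM (0 to 107) in negative AON projection neurons, and of 55.2 CPM (0 to 201) and 56.8 CPM (0 to 282) in the pPCx library.

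The genes that went with the receptor UMIs were then compared at equal depth, between nuclei with and without a UMI of the 3 genes after thinning to 8000 UMIs. Some negative nuclei of this comparison held receptor UMIs before thinning. At full depth 14 of the 18 AON and 31 of the 59 pPCx nuclei held one, against 12 and 23 after thinning. Ratios are log2 ratios of summed UMIs with 0.5 added, for genes with at least 20 UMIs, and 95% intervals cover counting error over nuclei of 1 library. Among 23 positive and 36 negative pPCx nuclei, 36 of 3825 genes were 4-fold or more higher in the positive nuclei (0.941%) and 41 were 4-fold or more lower (1.07%). Among 12 positive and 6 negative AON nuclei, 42 of 1231 genes were 4-fold or more higher (3.41%) and 66 were 4-fold or more lower (5.36%).

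The 8 highest ratios of the pPCx library began with Gabrg3, a subunit of the GABA-A receptor, with 50 UMIs in 8 positive and 3 UMIs in 3 negative nuclei (log2 ratio 4.50, 3.08 to 7.03), and 58.5% of its UMIs were in 1 nucleus. Gm15398, an RNA gene, had 194 UMIs in 20 of 23 positive and 17 UMIs in 5 of 36 negative nuclei (4.12, 3.44 to 4.97). Gm11309 followed with 26 and 2 UMIs (4.05, 2.35 to 7.47). Pcdh15, a protocadherin known from hair cells, had 653 UMIs in 22 positive and 120 UMIs in 25 negative nuclei (3.09, 2.81 to 3.38). The remaining ones were Dgkg, a diacylglycerol kinase (3.58), Ppargc1b, a transcriptional coactivator (3.20), Hs3st4, a heparan sulphate sulphotransferase (3.18), and Gria1, an AMPA receptor subunit (3.05). At 20000 UMIs per nucleus the ratio was 1.97 for Gabrg3 (100 and 30 UMIs), 2.01 for Dgkg, and 1.53 for Ppargc1b. At 3000 UMIs per nucleus it was 1.20 for Gm15398 (41 and 44 UMIs) and 0.94 for Ppargc1b (3 and 4 UMIs).

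The lowest ratio of the pPCx library was that of Shank3, a postsynaptic scaffold gene, which had 24 UMIs in 17 of 36 negative nuclei and none in the 23 positive ones, at least 5.11-fold lower against the floor of 3 UMIs. With the depth or the call changed, the log2 ratio of Shank3 was -0.28 at 3000 UMIs per nucleus (2 and 7 UMIs), -0.38 at 20000 UMIs (16 and 25 UMIs) and -1.10 with positive nuclei called at full depth (8 and 16 UMIs). Doc2b, a calcium sensor of vesicle release, had 2 UMIs in positive and 37 UMIs in 20 negative nuclei (-3.26, -6.66 to -1.61). Sorcs1, a sorting receptor, had 6 and 91 UMIs (-3.17, -4.76 to -2.10). The others were Gm15336 (-3.44), Gmps, which encodes GMP synthase (-3.26), and Gm13629 (-3.18). At 20000 UMIs per nucleus the ratio was -0.11 for Gmps (24 and 31 UMIs), -0.23 for Gm13629 (37 and 52 UMIs) and -1.03 for Sorcs1 (47 and 115 UMIs), and with positive nuclei called at full depth it was -1.01, -1.01 and -2.07. Under the same alternatives Doc2b was at -2.04 and -2.51, and Gm15336 at -2.40 and -1.80.

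**Figure D4:**
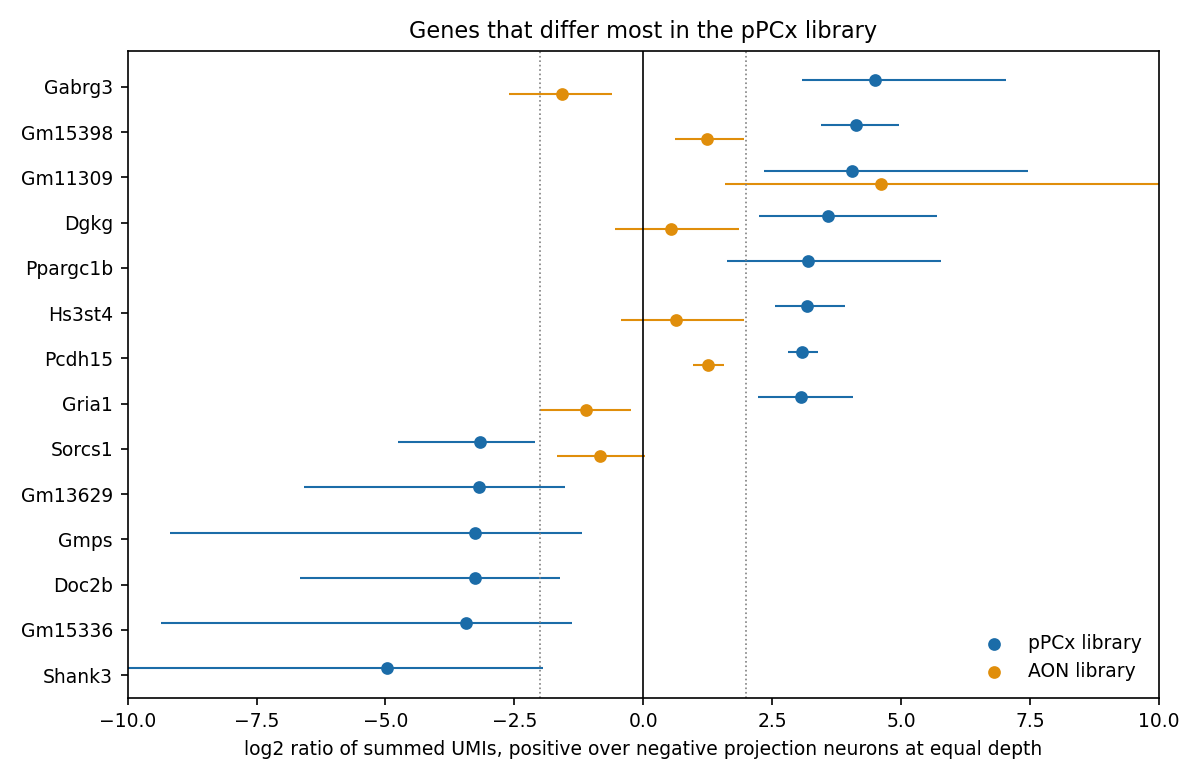
Log2 ratio of summed UMIs, positive over negative projection neurons at 8000 UMIs per nucleus, for the 8 highest and 6 lowest genes of the pPCx library (blue) and their ratios in the AON library (orange, where 20 or more UMIs were left). Lines are 95% counting intervals, lines that reach the frame have no finite end or run past it, and dotted lines mark 4-fold; Gm11309 lies above 4 in both libraries, while Gabrg3 and Gria1 have opposite signs.

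In the AON library the highest ratios belonged to genes without a UMI in the 6 negative nuclei. A230006K03Rik had 26 UMIs in 7 positive nuclei (at least 4.33-fold higher), Gm11309 had 24 in 10 (at least 4-fold), Svil, which encodes the actin-binding supervillin, had 23 in 9 (at least 3.83-fold), and Mdga1, a cell adhesion gene, had 20 in 10 (at least 3.33-fold). Kitl, the gene of stem cell factor, had 50 UMIs in 7 positive and 2 UMIs in 1 negative nucleus (log2 ratio 3.34, 1.72 to 6.73). 4930473D10Rik (3.09), Rap1gap2, a Rap GTPase activator (3.03), and Kcna2, a voltage-gated potassium channel (2.97), made up the rest. At 20000 UMIs per nucleus, where 2 negative nuclei were left, the log2 ratio was 0.85 for A230006K03Rik (64 and 5 UMIs), 0.66 for Rap1gap2 (56 and 5 UMIs) and 0.42 for Kcna2 (56 and 6 UMIs). With the stricter rule for a projection neuron (at least 3 excitatory marker UMIs and more than 2 times the inhibitory ones) it was 1.51 for A230006K03Rik (27 and 3 UMIs), 0.50 for Rap1gap2 and 1.40 for Kitl. At 3000 UMIs it was 0.60 for Rap1gap2 and 0.12 for Svil, which had 3 UMIs in each class. A230006K03Rik was lower in positive nuclei of the pPCx library (-0.80, -1.24 to -0.38).

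The lowest ratios in the AON library rested on 2 or 3 negative nuclei each. Slc4a4, a bicarbonate transporter abundant in astrocytes, had 1 UMI in the positive and 136 UMIs in 3 negative nuclei (-7.51, -13.4 to -5.59). Ptprz1, a phosphatase gene of glia, had 0 and 54 UMIs (at least 36-fold lower), Qk, an RNA-binding protein gene of glia, had 1 and 72, Grin3a, an NMDA receptor subunit, had 0 and 36, and Cdh19 and Pde7b each had 0 and 23. Astrocyte and oligodendrocyte markers summed to a median of 1375 CPM (0 to 6375) in the negative and 62.5 CPM (0 to 750) in the positive nuclei of this comparison. With the stricter rule for a projection neuron, 12 genes were 4-fold or more higher and 6 lower in the AON library, and Slc4a4, Ptprz1, Qk and Pde7b turned to ratios above 0 with 0 UMIs left in the negative nuclei. Gm11309 was then 18 UMIs to 0. At 20000 UMIs per nucleus the ratio was -0.38 for Slc4a4 (7 and 1 UMIs) and -0.83 for Qk (5 and 1 UMIs).

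Of 1185 genes compared in both libraries, 40 were 4-fold or more higher in positive AON nuclei and 26 in positive pPCx nuclei. In both were 3 (7.5% of the AON and 11.5% of the pPCx genes), namely Gm11309, Frmpd4, a scaffold protein gene of synapses, and Sgcz, a sarcoglycan gene. Lower by 4-fold or more were 41 AON and 5 pPCx genes, with Nnat and Pde7b in both (4.88% of the 41 and 40% of the 5). In the AON library Pde7b rested on 3 negative nuclei, and with the stricter rule for a projection neuron no UMI of it was left in negative nuclei.

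Genes that the study used to describe mitral cell types separated the positive from the negative pPCx nuclei. The study drew these lists from other nuclei than the present ones. Of the 14 genes of its M1 list, 8 had enough UMIs, and all 8 were lower in positive pPCx nuclei, 5 of them 4-fold or more (median log2 ratio -2.12, against -0.02 over all 3825 genes). They included the transcription factor gene Ebf1 (66 UMIs in 4 positive and 422 UMIs in 34 negative nuclei), the adhesion gene Cntn6 (118 in 6 and 722 in 34) and the GABA-A receptor subunit gene Gabra2 (44 in 6 and 346 in 34). The summed M1 list was at 1522 CPM in positive and 6288 CPM in negative nuclei.

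Of the 11 genes of the M2 list, 3 had enough UMIs, and all 3 were higher in positive pPCx nuclei, 2 of them 4-fold or more (median 2.47). Examples were Sema6d, a guidance molecule (112 UMIs in 19 positive and 31 in 13 negative nuclei), and Samsn1, an adaptor gene (19 in 14 and 5 in 5). The summed list was at 2951 CPM in positive and 868 CPM in negative nuclei. Piezo2, a mechanosensitive channel on this list, had too few UMIs for a ratio, with 12 in 9 positive nuclei and none in the negative ones. The 2 genes of the M3 list with enough UMIs, Cadps2 and Fst, had ratios of 0.69 and 0.09. No gene of the tufted and external tufted lists (T1, ET1, ET2 and ET4) had enough UMIs in the pPCx library.

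Split by which list had more UMIs, a split chosen after the data were seen, 37 pPCx projection neurons lay on the M1 side and 22 on the M2 side, and 1 nucleus lay within 2-fold of equality. Sides are sums of lists and not type calls. With classifiers on the activity of gene sets linked to transcription factors, the study assigned most projection neurons of its pPCx library to M2 and few to M1. The larger side here is thus the other one, and the reason was not tested. At full depth, 21 of 22 M2-side nuclei (95.5%, 77.2 to 99.9%) and 10 of 37 M1-side nuclei (27.0%, 13.8 to 44.1%) held a UMI of the receptor genes. At 8000 UMIs per nucleus the shares were 19 of 22 (86.4%, 65.1 to 97.1%) and 4 of 37 (10.8%, 3.03 to 25.4%). Median depth was 41132 UMIs on the M2 and 31440 UMIs on the M1 side.

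The nucleus with the most receptor UMIs of all was an exception. It lay on the M1 side, with 108 M1-list and 10 M2-list UMIs, and held 115 of the 148 receptor UMIs of that side. The summed level was 415 CPM (376 to 456) on the M2 side and 114 CPM (96.0 to 133) on the M1 side, or 26.2 CPM (18.0 to 36.8) on the M1 side without that nucleus. Over the 59 nuclei, Spearman's rho of the receptor level was 0.63 with the M2 list and -0.60 with the M1 list; all levels share the depth of the nucleus.

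**Figure D5:**
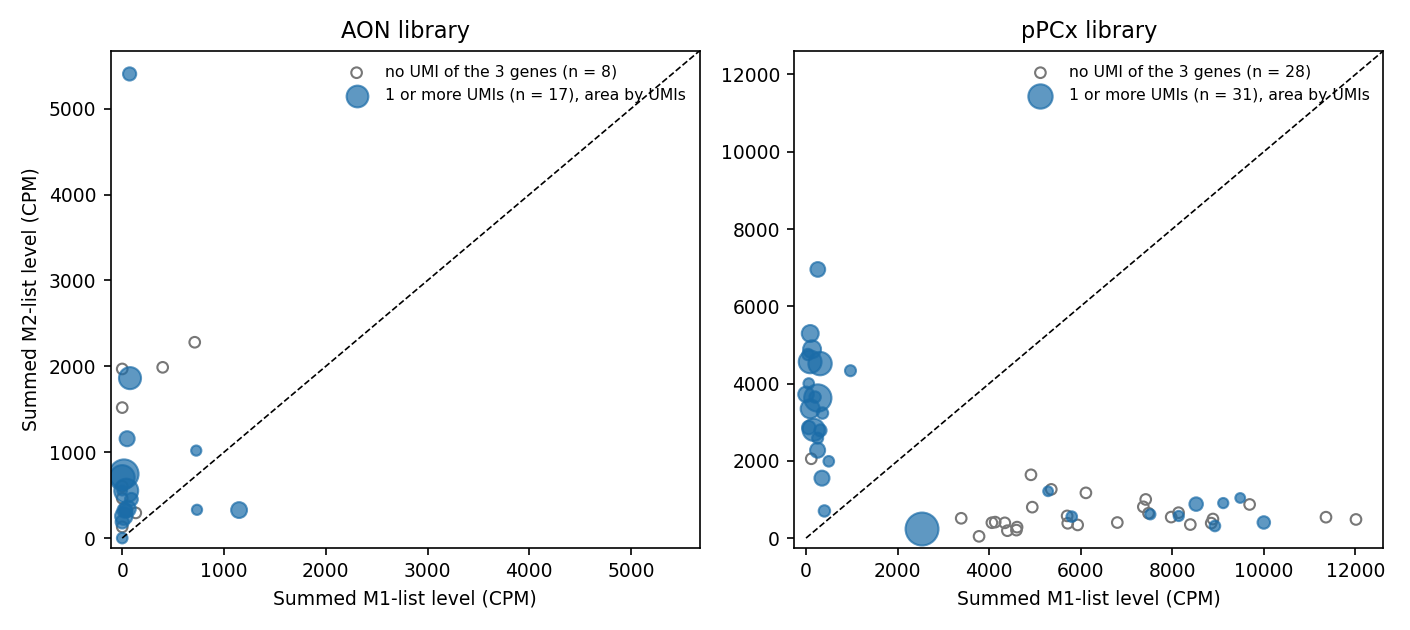
Summed level of the M2 list against that of the M1 list (CPM) in each projection neuron of the AON (left) and pPCx (right) library, with nuclei holding a UMI of Vmn1r206, Vmn1r208 or Vmn1r209 filled and sized by those UMIs, and the dashed line marking equality. In the pPCx library 21 of the 22 nuclei above the line are filled, and the largest symbol, of 115 UMIs, lies below it.

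In the AON library the lists did not separate the nuclei in this way. There 22 of 25 projection neurons lay on the M2 side, of which 14 held receptor UMIs (63.6%, 40.7 to 82.8%). Another 2 lay on the M1 side, both with receptor UMIs, and 1 had equal sums. M2-list levels on this M2 side ran from 130 to 5404 CPM. In the pPCx library they ran from 703 to 6954 CPM on the M2 side and from 45.5 to 1638 CPM on the M1 side. Some AON sides rest on few UMIs, such as 1 of the M2 and 0 of the M1 list in a nucleus of 7675 UMIs, so they are not M2 calls. Of the M2 list, 3 genes had enough UMIs and 2 of them were lower in positive nuclei, with ratios of -3.32 for Sema6d and 1.89 for Samsn1, against a median of 0.14 over all 1231 genes. In the same nuclei the astrocyte markers summed to 1708 CPM in negative and 115 CPM in positive ones, and the olfactory ensheathing cell markers to 958 CPM (46 UMIs) and 20.8 CPM (2 UMIs). Their part in these ratios was not tested. No gene of the M1 or M3 list had enough UMIs. At 20000 UMIs per nucleus, where 13 positive and 2 negative AON nuclei were left, the summed M2 list turned from a log2 ratio of -1.93 to 1.76. Of the T1 list the odorant receptor gene Olfr111 alone had enough UMIs in the AON library (1.24), and of the ET1 list the nuclear receptor gene Rorb (-1.77). The difference between the libraries was not tested.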

How the data were processed

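Nuclei of olfactory bulb projection neurons were labelled by retrograde virus, sorted and sequenced with the 10x 3′ kit, version 3.1, 1 library per injection site. The deposited UMI counts per gene and barcode were made by the authors with Cell Ranger, and the raw counts were used as deposited. The processing notes name only human genome builds while the gene identifiers are mouse Ensembl ones, so the build, and whether intronic reads were counted, are not given in the sources used here. There were 188 AON and 74 pPCx barcodes. Barcodes with fewer than 1000 genes were left out, a filter that the study's methods state, which leaves 63 pPCx nuclei here. The methods give 74 retained nuclei, the number of pPCx barcodes before that filter. No barcode was shared between libraries, no kept nucleus had over 0.93% mitochondrial UMIs, and no doublet caller was run.

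Counts were summed over nuclei of a class and given as CPM of the class with exact Poisson intervals, and shares of nuclei with exact Clopper-Pearson intervals at 95%. Thinning drew 8000 UMIs per nucleus without replacement. Genes called differ 4-fold or more. Kept nuclei had between 2969 and 274993 UMIs, which limits detection of a rare transcript in the shallowest ones. The named genes were the 3 genes, other V1R and V2R genes with 5 or more UMIs, genes within 500 kb with 10 or more UMIs in projection neurons, the 8 highest and 6 lowest ratios per library among genes found in at least 25% of the nuclei of the higher set, and the 5 genes of highest Spearman's rho among those found in at least 20% of projection neurons. The genes and lists were chosen with earlier results of these data known. Alternatives were other filters, class rules, depths, added counts and left-out nuclei. The thinning and the ratio formula were tested on simulated data in which positive nuclei were assigned at random. The calling of positive nuclei by receptor UMIs was not part of that test. Locations and transcript sequences came from GENCODE M21 (GRCm38). Python 3.11.15, numpy 2.4.6, scipy 1.17.1 and matplotlib 3.10.9 were used. The values of 1 gene of the M2 list are not reported here.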

Additional observations from a re-analysis of the deposited data

Results flagged for a closer look

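UMIs of the receptor genes also occurred in barcodes below the filter on genes, which only the alternative without that filter used. In the AON library, 11 of the 86 barcodes below 1000 genes held 26 UMIs of the 3 genes, above the 3 UMIs that a count of 0 allows, at 275 CPM (179 to 402). Of these 11 barcodes, 4 had more excitatory than inhibitory marker UMIs and 7 had equal numbers, and the most UMIs in 1 barcode was 9. In the pPCx library, 1 of 11 such barcodes held 1 UMI.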

How the results depend on the processing

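No paired analysis was possible because a single library stands for each injection site. Without the filter on genes, the AON share of positive projection neurons was 43.8%, that with 2 or more of the genes 29.2%, and 5% of other AON nuclei (7 of 140) held a UMI. With the stricter rule for a projection neuron the first 2 were 94.1 and 76.5%, and 1 of 85 other AON nuclei held a UMI. The share with 2 or more of the genes was 33.3% (AON) and 18.6% (pPCx) at 8000 UMIs, 12 and 6.78% at 3000 UMIs, and in the pPCx library 22.0% when each gene needed 2 UMIs. The pPCx share with any of the genes was 39.0 and 28.8% at these depths. The summed level was 288 CPM in the AON and 200.4 CPM in the pPCx library without the top nucleus, and 215 CPM in the pPCx library with equal weight per nucleus. The cause of these moves was not tested, except that thinning leaves fewer UMIs to detect.

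Counts of genes 4-fold higher in positive nuclei (42 AON, 36 pPCx) were 18 and 8 at 3000 UMIs; in the AON library they were 97 at 20000 UMIs, 159 when positive was called at full depth, 6 with 5 added and 12 with the stricter rule. Counts of lower genes (66 AON, 41 pPCx) were 37 and 27 at 3000 UMIs; AON counts were 38 at 20000 UMIs and 6 with the stricter rule, and pPCx counts were 17 when positive was called at full depth, 6 with 5 added and 27 with a second seed of the thinning. With the stricter rule the AON log2 ratios of Ptprz1, Qk and Pde7b turned to 0.13 and that of Slc4a4 to 1.71, all with 0 UMIs in the negative nuclei. The summed M2 list in the AON library was at -1.03 at 3000 UMIs, 1.76 at 20000 and -0.72 with positive called at full depth. For pPCx it was at 1.03, 1.40 and 2.11, and at 1.99 with the stricter rule, and the M1 list was at -1.39 at 20000 UMIs and -1.24 with positive called at full depth. For the named genes, 121 of 165 alternative ratios lay within the counting interval of the reported one, 40 lay outside it with the same sign and 4 changed sign. Those that changed sign were the AON ratios of Slc4a4, Ptprz1, Qk and Pde7b with the stricter rule. The stricter rule for ratios and gene counts, all alternatives for list ratios and gene counts, and the second seed were chosen after seeing the data. The AON comparison rests on 6 negative nuclei at 8000 UMIs.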
